A study of Mus musculus with 4 samples.

Results

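Interferon regulatory factors (IRFs) are encoded by a family of genes, and 6 of them, *Irf1*, *Irf2*, *Irf3*, *Irf4*, *Irf5*, and *Irf8*, are described here by the binding of JunB, BATF, and IRF4 around them. A peak belonged to a gene when its centre lay within 50 kb of any annotated transcription start site (TSS) of that gene in the mouse assembly mm9. By this rule 88 of the 103355 peaks in 4 libraries were found at the 6 loci: 20 of 29659 JunB peaks, 13 of 13570 BATF peaks, 28 of 31093 IRF4 peaks, and 27 of 29033 IRF4 peaks from *Junb*-deficient cells. The rule uses no measured value, but the genes were chosen with earlier results of these data known.

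IRF proteins share a DNA-binding domain that recognizes the sequence GAAA, and they switch on or dampen interferon-responsive genes. IRF4 binds DNA weakly by itself, and in T cells it gains affinity beside a dimer of BATF and a Jun protein such as JunB, on composite elements in which GAAA stands next to the AP-1 site (AICE motifs). In B cells and myeloid cells it pairs with ETS factors such as PU.1 on composite elements with GGAA (EICE motifs). In regulatory T (Treg) cells IRF4 is induced by the T cell receptor and is needed for effector Treg cells.

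Chromatin immunoprecipitation-sequencing (ChIP-seq) uses an antibody to pull down the DNA that a protein occupies, and peaks are called where reads pile up above their surroundings. The cells were CD4+CD25+ Treg cells from mouse spleen, all activated for 60 h with antibodies to CD3 and CD28 and with IL-2. From *Junb*-sufficient cells there was 1 library each for JunB, BATF, and IRF4, and from *Junb*-deficient cells 1 library for IRF4. Sample labels name the genotypes Foxp3cre JUNB+/+ and Foxp3cre JUNBFl/Fl on C57BL/6, in which both carry a Cre driven by the Treg gene *Foxp3*, whereas the paper's legend names *Junb* fl/fl mice without and with *Cd4*Cre, a Cre active in all T cells that the controls then lack. Which of these held for the libraries cannot be told from the lists. Neither source gives an age for each library. An antibody field in the labels gives IRF4 for the library titled BATF and the reverse, and libraries were named here by title, which the recorded peak-calling commands match. Peak lists contain no expression values, so the cell type could not be checked against its markers, nor could the loss of *Junb*.

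The libraries held 21127029 to 27399986 tags, and 16.0 to 17.9 M after identical positions were limited to 1 tag. The share of tags inside peaks was 4.27% for JunB, 5.03% for BATF, 12.76% for IRF4, and 11.15% for IRF4 in *Junb*-deficient cells. Peaks were called at a width of 151 bp for JunB and 605 to 613 bp for the others. The recorded tag threshold was 10 for JunB and 19 for the others. Filtering against the surroundings removed 5.25% of putative JunB peaks, against 36.2 to 37.4% in the other libraries. The score of every peak was 1, so each peak is given by its place in its list, and sharing between lists fell along that order. JunB peaks that overlapped an IRF4 peak made up 89.4% of the first 10% of the JunB list and 19.3% of the last. With 1 library per condition no test between conditions was possible, and intervals are exact (Clopper-Pearson) 95% intervals over peaks, which cover counting error only and take neighbouring peaks as independent.

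The sequences below are examples of the sites described and are read from mm9 on the plus strand, with motif letters in capitals. The first set is, for each locus that had one, the JunB peak overlapped by both BATF and IRF4 that stood first in the JunB list. Capitals mark the AP-1 sequence TGANTCA, which is its own reverse complement apart from the central base, and a peak without capitals held no match to any motif searched.
*Irf4* triple site, chr13:30839376-30839526: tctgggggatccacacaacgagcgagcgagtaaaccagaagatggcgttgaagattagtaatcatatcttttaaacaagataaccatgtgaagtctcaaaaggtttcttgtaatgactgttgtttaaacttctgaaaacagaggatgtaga
*Irf2* triple site, chr8:47819986-47820136: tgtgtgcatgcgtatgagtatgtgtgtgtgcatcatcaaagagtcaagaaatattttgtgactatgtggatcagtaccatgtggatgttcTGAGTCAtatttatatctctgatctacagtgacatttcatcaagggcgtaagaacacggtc
*Irf8* triple site, chr8:123252095-123252245: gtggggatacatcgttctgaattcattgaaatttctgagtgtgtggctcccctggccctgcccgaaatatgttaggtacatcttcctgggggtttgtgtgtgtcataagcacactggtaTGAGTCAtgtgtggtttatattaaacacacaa
*Irf5* triple site, chr6:29507127-29507277: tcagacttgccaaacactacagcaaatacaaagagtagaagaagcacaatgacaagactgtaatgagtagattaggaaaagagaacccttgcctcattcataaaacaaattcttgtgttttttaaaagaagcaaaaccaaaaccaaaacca
The *Irf4* site lies in intergenic sequence upstream of the gene and held no AP-1 match, whereas the *Irf2* and *Irf8* sites upstream of their genes each held 1. The *Irf5* site lies in an intron of the neighbouring gene *Tnpo3*. In *Junb*-deficient cells an IRF4 peak was listed at the *Irf4*, *Irf2*, and *Irf5* sites and not at the *Irf8* site.

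A second set shows a further place where IRF4 was shared with JunB and BATF but was not listed in *Junb*-deficient cells, with 100 bp on each side of the IRF4 peak centre at *Irf2*, and the highest-placed JunB peak at *Irf4* that no BATF or IRF4 peak overlapped. The latter was added after the values were seen. Capitals again mark AP-1. The word lost means only that no listed *Junb*-deficient IRF4 peak overlapped the site.
*Irf2* lost site, chr8:47799802-47800002: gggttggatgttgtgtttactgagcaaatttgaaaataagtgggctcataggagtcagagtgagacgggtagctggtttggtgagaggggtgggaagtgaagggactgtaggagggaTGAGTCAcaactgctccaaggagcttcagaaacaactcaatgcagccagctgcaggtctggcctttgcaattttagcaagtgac
*Irf4* JunB-alone site, chr13:30838964-30839114: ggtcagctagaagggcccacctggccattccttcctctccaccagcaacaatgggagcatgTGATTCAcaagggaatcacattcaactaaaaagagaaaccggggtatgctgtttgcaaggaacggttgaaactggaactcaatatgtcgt
The last set gives 3 of the matches of composite elements, with the whole element in capitals. The first is the sole AICE match in any peak of the 6 loci, within 100 bp of the centre of an IRF4 peak downstream of *Irf1*. The other two are 30-bp stretches around the EICE matches at the TSS of *Irf2*, in its 5′ untranslated region, and beside a TSS of *Irf5*, in an intron of its longer transcripts, and were added after the values were seen.
*Irf1* AICE, chr11:53624962-53625162: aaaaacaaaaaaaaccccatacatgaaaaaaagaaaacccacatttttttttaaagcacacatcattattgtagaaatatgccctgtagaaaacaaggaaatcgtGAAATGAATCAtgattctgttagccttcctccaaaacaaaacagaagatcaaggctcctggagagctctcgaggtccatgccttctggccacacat
*Irf2* EICE, chr8:47825195-47825224: actgacgggcTTTCATTTCCattttacaca
*Irf5* EICE, chr6:29479189-29479218: atcgggctacTTTCATTTCCcttaggtcag
The *Irf2* and *Irf5* elements have the same 10 letters, which read GGAAATGAAA on the other strand.

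The 3 factors were unevenly spread over the 6 loci. *Irf4*, *Irf2*, and *Irf8* held 17 of the 20 JunB peaks and 12 of the 13 BATF peaks, whereas *Irf1* held IRF4 peaks and none of JunB or BATF. IRF4 peaks were listed at all 6 loci in both genotypes. Among 22367 protein-coding genes, 64.9% had a JunB peak by the same rule, 48.9% a BATF peak, 74.0% an IRF4 peak, and 73.3% an IRF4 peak in *Junb*-deficient cells, and the median gene had 1, 0, 2, and 2 peaks. The members were chosen as a gene family, and their numbers of peaks are set beside these values as a description.

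**Figure D1:**
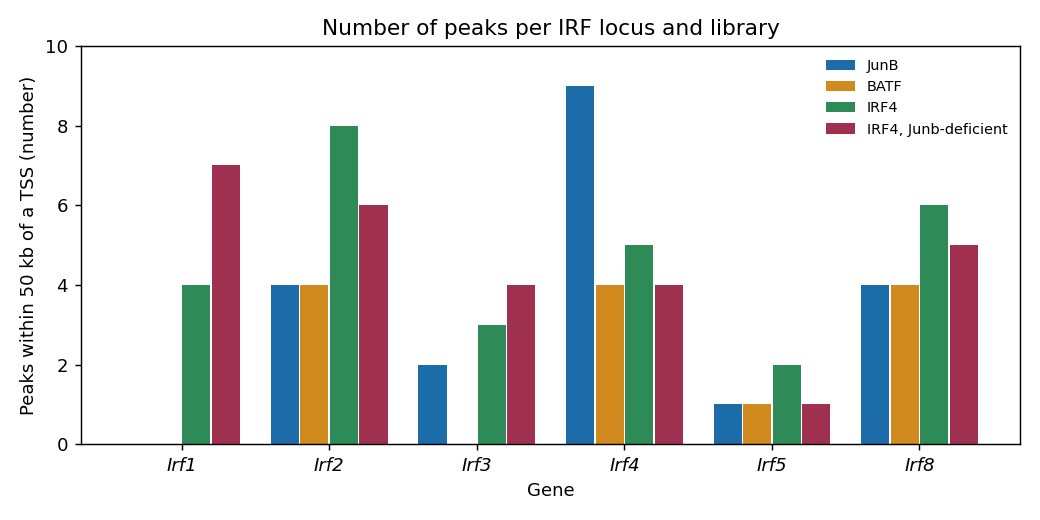
Number of peaks (vertical axis) within 50 kb of a TSS of each of the 6 IRF genes (horizontal axis), with 1 bar for each library; a missing bar is 0 peaks. *Irf4* has 9 JunB peaks, *Irf1* has none, and the IRF4 bars of both genotypes are above 0 at every gene.

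**Figure D2:**
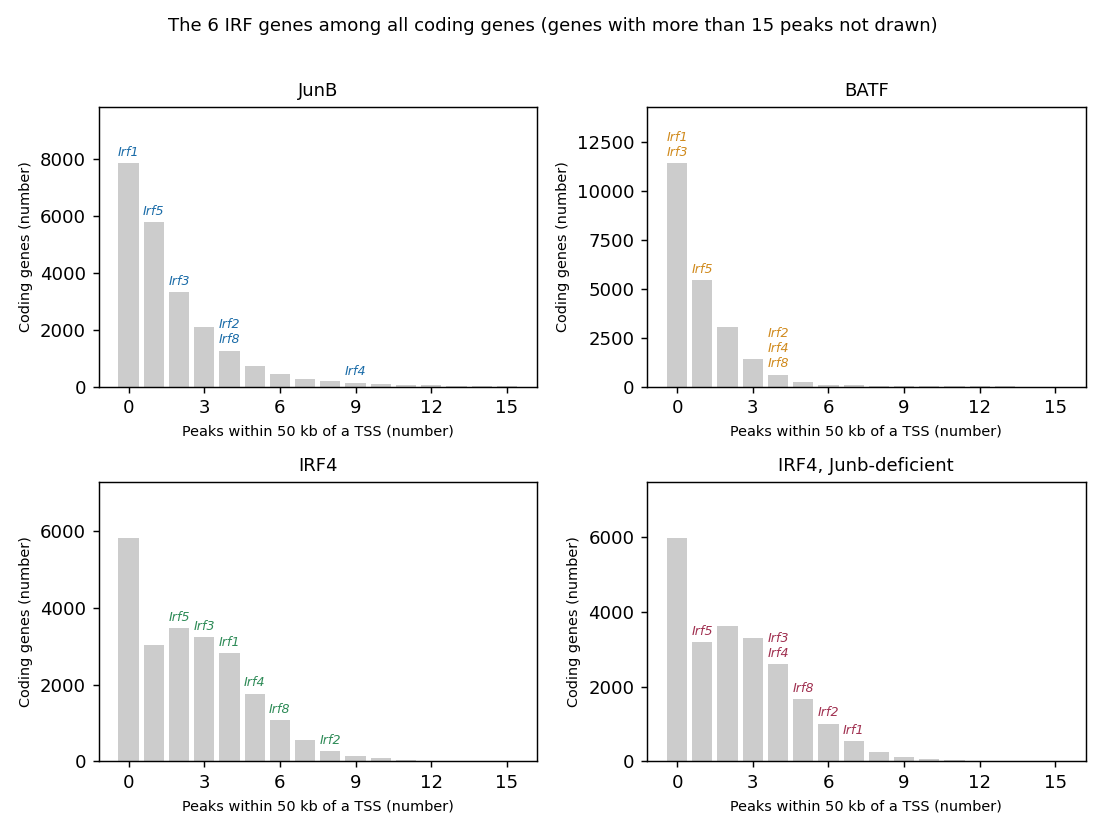
Number of protein-coding genes (vertical axis) with each number of peaks (horizontal axis), 1 panel for each library, with the names of the 6 IRF genes above the bar that holds them. *Irf4* lies far to the right for JunB, with 9 peaks against a median of 1, and *Irf1* to the right for IRF4 in *Junb*-deficient cells, with 7 peaks against a median of 2.

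*Irf4*, the gene of the IRF needed for effector Treg cells, held the most JunB peaks of the 6 genes. It had 9 JunB, 4 BATF, 5 IRF4, and 4 *Junb*-deficient IRF4 peaks (chr13:30841095-30858796, plus strand, 1 TSS). At least 9 JunB peaks were found at 1.89% of coding genes (422 of 22367). All 22 peaks at this locus had the *Irf4* TSS as the nearest coding TSS, and no other coding gene started in the window.

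At 3 places of the *Irf4* locus all of the factors met, and IRF4 was listed at each in both genotypes. The first lay at −1.6 kb from the TSS, where the JunB peak was at place 324 of 29659, the BATF peak at place 652 of 13570, the IRF4 peak at place 232 of 31093, and the IRF4 peak of *Junb*-deficient cells at place 44 of 29033. It was the highest-placed site of the 6 loci in every list. The second lay at 26.8 kb, downstream of the gene, with JunB at place 6169, BATF at place 3318, and IRF4 at place 1187, against place 248 in *Junb*-deficient cells. The third, at 47.1 kb, had JunB at place 2751, BATF at place 3204, and IRF4 at place 1904, against place 3812 in *Junb*-deficient cells. The first and second of these IRF4 peaks stood nearer the top of the list in *Junb*-deficient cells and the third farther from it.

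The other *Irf4* sites were listed for fewer factors. BATF and IRF4 peaks without JunB lay at −16.3 kb, with BATF at place 7999 and IRF4 at place 15426, against place 6834 in *Junb*-deficient cells, and this site held the ISRE-type sequence of GAAA, 2 bases, and GAAA. An IRF4 peak at −22.2 kb, at place 16938, stood alone and had no *Junb*-deficient counterpart. No peak of any list overlapped the *Irf4* TSS itself.

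At *Irf4*, 6 of 9 JunB peaks overlapped neither BATF nor IRF4. These were all the JunB peaks of that kind at the 6 loci (6 of 20 JunB peaks, 30.0%, interval 11.9 to 54.3%). Over all JunB peaks this kind made up 54.3%, at the upper end of that interval. The share at *Irf4* alone was thus above that of all JunB peaks and the share at the 6 loci together below it. Both rest on few peaks, and neither difference was tested. The tag threshold was lower for JunB (10) than for BATF and IRF4 (19), and its part in this kind was not tested. The 6 peaks lay at −2.1 kb (place 5848), 5.0 kb (place 27919, in an intron), 15.5 kb (place 20226, in an untranslated part of an exon), 24.1 kb (place 22114), 28.6 kb (place 14474), and 43.2 kb (place 8931). The one at −2.1 kb, whose sequence is given above with its AP-1 match, ended 4 bases before the IRF4 peak and 38 bases before the BATF peak of the site at −1.6 kb. Its own centre was 412 bp from the next JunB peak. The recorded minimum distance between 2 peaks was 300 bp for JunB but 1224 bp for BATF and IRF4, and the smallest distances found in those lists were 1088 and 1079 bp, so neither list held 2 peaks this near each other. Over all 16111 JunB peaks of this kind, 10.7% had a BATF or IRF4 peak within that distance, and of the 6 at *Irf4* only the one at −2.1 kb did.

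**Figure D3:**
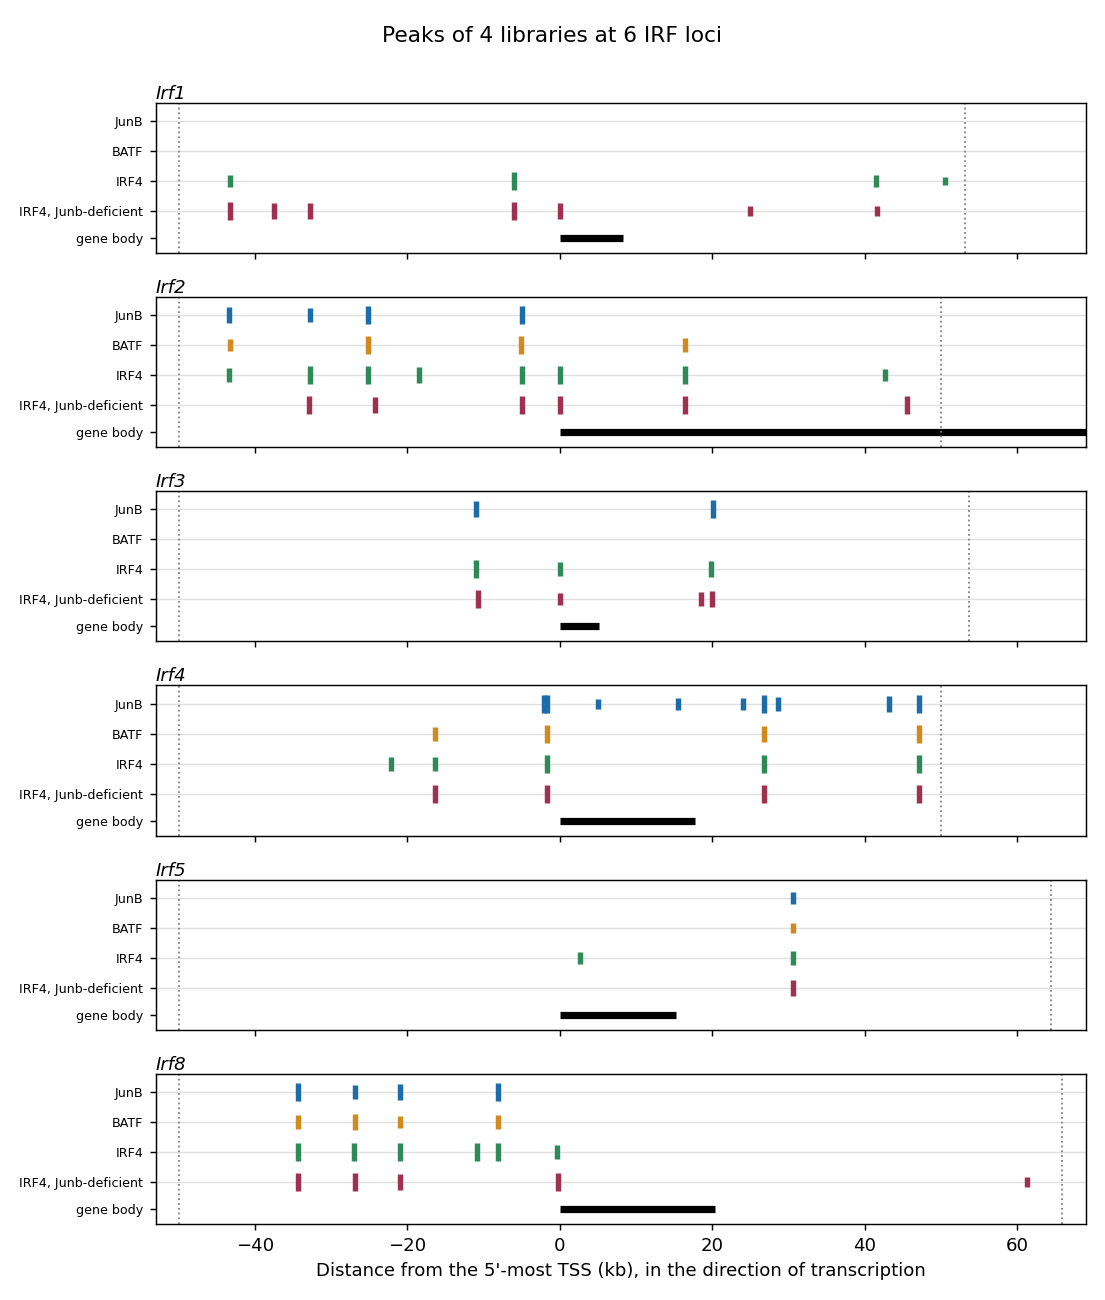
Position of each peak (horizontal axis, kb from the 5′-most TSS in the direction of transcription) at the 6 loci, 1 panel for each gene and 1 row for each library; taller marks are nearer the top of their list, the black bar is the gene, and dotted lines are the ends of the window. Marks of JunB, BATF, and IRF4 line up at *Irf4*, *Irf2*, and *Irf8*, *Irf1* has none of JunB or BATF, and 6 JunB marks at *Irf4* have no mark below them, the one at −2.1 kb merging with its neighbour at this scale.

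*Irf8* encodes the closest relative of IRF4, known for its part in dendritic cell and macrophage development. Its locus (chr8:123260258-123280594, plus strand, 7 TSSs) had 4 JunB, 4 BATF, 6 IRF4, and 5 *Junb*-deficient IRF4 peaks, and all 4 JunB peaks overlapped both BATF and IRF4. All 4 of these triple sites lay upstream of the gene, in sequence that is intergenic except for *Gm20388*, a predicted gene model that runs across the whole window. The peak at −34.4 kb stood slightly nearer to a TSS of *Cox4i1*, and the other 3 nearest to *Irf8*. Each of the 4 JunB peaks held AP-1 within 100 bp of its centre. Over the genome, 30.1% of JunB peaks overlapped both BATF and IRF4, and 50.1% of those held AP-1. The 4 peaks at *Irf8* are few, and neither difference was tested.

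The triple sites of *Irf8* lay at −34.4 kb, −26.9 kb, −20.9 kb, and −8.1 kb. At −34.4 kb IRF4 was at place 3835, against place 4793 in *Junb*-deficient cells. At −26.9 kb it was at place 4296, against place 3245, and at −20.9 kb at place 4253, against place 7498. These 3 sites kept IRF4 in *Junb*-deficient cells. The site at −8.1 kb, with JunB at place 4496, BATF at place 6475, and IRF4 at place 7319, did not. Among all IRF4 peaks that overlapped JunB, 23.8% were without a *Junb*-deficient counterpart. The nearest *Junb*-deficient IRF4 peak to the site at −8.1 kb lay 7866 bp away, at the promoter. That promoter peak was at place 17149 in *Junb*-sufficient cells and at place 6291 in *Junb*-deficient cells, a move from 55.2% to 21.7% of the list. A peak at −10.9 kb (place 4931) was listed in *Junb*-sufficient cells alone, and a peak at 61.3 kb from the first TSS (place 25701) in *Junb*-deficient cells alone.

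*Irf2* encodes a factor that competes with IRF1 for the same elements. Its locus (chr8:47825099-47932812, plus strand, 1 TSS) had 4 JunB, 4 BATF, 8 IRF4, and 6 *Junb*-deficient IRF4 peaks, and at least 8 IRF4 peaks were found at 2.75% of coding genes. The gene is longer than the window, so its 3′ part was not covered. Every peak had the *Irf2* TSS as its nearest coding TSS.

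At *Irf2*, 4 of the 8 IRF4 peaks had no overlapping peak in the *Junb*-deficient list, against 35.0% of all IRF4 peaks. Of 3 triple sites, the one at −5.0 kb kept IRF4 (JunB at place 973, BATF at place 3191, IRF4 at place 3394, against place 2381). The sites at −25.2 kb (JunB at place 2278, BATF at place 1842, IRF4 at place 2588) and −43.4 kb (JunB at place 9462, BATF at place 9101, IRF4 at place 16219) had no IRF4 peak overlapping them in *Junb*-deficient cells. Among all IRF4 peaks that overlapped JunB, 23.8% were without a counterpart, and the 3 triple sites here are few. The site at −25.2 kb was the highest-placed IRF4 peak of the 6 loci to be without a counterpart. However, a *Junb*-deficient IRF4 peak at place 7493 lay 943 bp away by its centre, with 334 bases between the ends. The list had a recorded minimum distance of 1210 bp between peaks, and its smallest distance found was 932 bp. Over all 10875 IRF4 peaks without a counterpart, 2.25% had a *Junb*-deficient IRF4 peak inside the minimum distance. The part of this distance at the *Irf2* site was not tested. It is not known from the lists how much IRF4 signal was left at −25.2 kb.

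Other *Irf2* sites lacked one or both AP-1 proteins. JunB and IRF4 without BATF were found at −32.8 kb (JunB at place 16861, IRF4 at place 4824, against place 2329), and BATF and IRF4 without JunB at 16.4 kb in an intron (BATF at place 8507, IRF4 at place 6716, against place 1328). An IRF4 peak covered the TSS at place 4252, against place 2831, with the EICE match printed above. All 4 of these kept peaks, that at −5.0 kb included, stood nearer the top in *Junb*-deficient cells. IRF4 peaks at −18.5 kb (place 9077) and 42.7 kb (place 22315) were listed in *Junb*-sufficient cells alone, and that at 45.6 kb (place 2382) in *Junb*-deficient cells alone, the highest-placed of its kind at the 6 loci.

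*Irf1* encodes an activator induced by interferon. Its locus (chr11:53583516-53591876, plus strand, 11 TSSs) had no JunB and no BATF peak, 4 IRF4 peaks, and 7 *Junb*-deficient IRF4 peaks. Of the 6818 coding genes with at least 4 IRF4 peaks, 5.44% likewise had no JunB and no BATF peak, and 4.66% of all coding genes had at least 7 *Junb*-deficient IRF4 peaks.

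Of the 7 *Junb*-deficient IRF4 peaks at *Irf1*, 4 had no *Junb*-sufficient counterpart, against 30.4% over the whole *Junb*-deficient list. The share at this locus rests on few peaks, with 1 library per genotype, and the difference was not tested. These 4 lay at −37.5 kb (place 9955), −32.8 kb (place 10783), the TSS itself (place 9397, its centre −26 bp from the TSS), and 21.9 kb (place 26460). Another 3 peaks were listed in both genotypes: at −6.0 kb (place 5612, against place 4394), at 38.4 kb with the AICE match (place 20150, against place 24345), and at −43.2 kb (place 21899, against place 3924). The last stood at 70.4% of the list in *Junb*-sufficient cells and at 13.5% in *Junb*-deficient cells, and 0.5% of all kept IRF4 peaks of the genome went up as far or farther. Only peaks far down the list can rise so far, and this was the largest upward move at the 6 loci. A peak at 47.5 kb (place 30170) was listed in *Junb*-sufficient cells alone. The *Irf1* TSS was the nearest coding TSS for 3 of the 11 peaks; for the others it was that of *Il5*, the gene of an eosinophil growth cytokine, or that of the predicted gene *Gm12216*.

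*Irf3*, which encodes the activator of type I interferon genes downstream of nucleic acid sensors, and *Irf5*, which encodes a driver of inflammatory cytokines in macrophages, lie in gene-dense regions. The *Irf3* locus (chr7:52253018-52258218, plus strand, 9 TSSs) had 2 JunB, no BATF, 3 IRF4, and 4 *Junb*-deficient IRF4 peaks. Both JunB peaks lay just upstream of neighbouring genes, −195 bp from a TSS of *Prmt1* (place 10159) and −276 bp from one of *Rras* (place 3463). An IRF4 peak overlapped each in both genotypes, at place 6884 against place 5818 at *Prmt1* and at place 10893 against place 10512 at *Rras*. The peak at the *Irf3* TSS, which also covers an exon of the neighbouring gene *Bcl2l12*, was IRF4 alone, at place 19651 against place 18838. A peak at the TSS of *Scaf1* (place 15276) was listed in *Junb*-deficient cells alone.

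The *Irf5* locus (chr6:29476625-29491869, plus strand, 7 TSSs) had 1 JunB, 1 BATF, 2 IRF4, and 1 *Junb*-deficient IRF4 peak. The triple site was not at *Irf5* but −137 bp from a TSS of *Tnpo3*, which encodes a nuclear import receptor, with JunB at place 21380, BATF at place 12329, and IRF4 at place 15050, against place 10104. The sole peak near an *Irf5* TSS was an IRF4 peak −85 bp from it (place 23788), with AP-1 and EICE matches, and it had no *Junb*-deficient counterpart. Of the peaks at *Irf3* and *Irf5*, 2 of 9 and 1 of 5 had the member's own TSS as the nearest coding TSS.

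Over the 6 loci, 11 of 20 JunB peaks overlapped both BATF and IRF4, or 55% (31.5 to 76.9%), against 30.1% of all JunB peaks. BATF overlapped JunB at 11 of 13 peaks, or 84.6% (54.6 to 98.1%), against 70.7% of all BATF peaks, and it overlapped IRF4 at 13 of 13 peaks, against 88.6%. JunB was found at 14 of 28 IRF4 peaks, or 50% (30.6 to 69.4%), against 40.3%. The interval of the triple share lay just above the share over all JunB peaks, while those of BATF with JunB and of IRF4 with JunB held it. The interval held the share over all JunB peaks with a 25 kb window (5 of 11, 16.7 to 76.6%), with peaks nearest to a member's own TSS (9 of 16, 29.9 to 80.2%), and in the first 50% of each list (7 of 14, 23.0 to 77.0%, against 35.5%). Sharing was also more frequent near the top of the lists, where the member JunB peaks tended to stand, with a median place of 31.0% of the list and 14 of 20 in its first 50%. The part of place in these shares was not tested.

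To compare IRF4 between the genotypes, each IRF4 peak was called kept when an IRF4 peak of the other list overlapped it by at least 1 bp. Of 28 IRF4 peaks in *Junb*-sufficient cells, 9 had no *Junb*-deficient counterpart, or 32.1% (15.9 to 52.4%), against 35.0% of all IRF4 peaks. They were 4 at *Irf2*, 2 at *Irf8*, and 1 each at *Irf1*, *Irf4*, and *Irf5*, and none at *Irf3*. Among the 14 that overlapped JunB, 3 had none, or 21.4% (4.66 to 50.8%), against 23.8%, and among the 14 that did not, 6 had none, or 42.9% (17.7 to 71.1%), against 42.5%. All of these shares were near those over the genome, which lay within their intervals. If each peak went without a counterpart at the rate of its own stretch of 10% of the list, 7.0 of the 28 peaks and 2.4 of the 14 that overlapped JunB would be without a counterpart.

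The 3 IRF4 peaks at JunB without a counterpart, 2 at *Irf2* and 1 at *Irf8*, overlapped BATF as well. Each held AP-1 but no AICE match. In the opposite direction 8 of 27 *Junb*-deficient IRF4 peaks had no *Junb*-sufficient counterpart, or 29.6% (13.8 to 50.2%), against 30.4% of that list, and the rate of the same stretches of the list gives 4.9. Of these 8, 4 were at *Irf1*, 2 at *Irf2*, and 1 each at *Irf3* and *Irf8*. None lay at a JunB peak (0 of 8, interval up to 36.9%), against 8.59% over the genome.

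Among the 19 kept IRF4 peaks, 13 stood nearer the top of the list in *Junb*-deficient cells, or 68.4%, against 48.6% of the 20218 kept peaks of the genome. No interval was computed for this share, which rests on few peaks, and the difference was not tested. The median change was −2.7 percentage points of the list, against 0.3 points. After the *Irf1* peak at −43.2 kb, the largest upward moves were the *Irf8* promoter (from 55.2% to 21.7%), the *Irf4* site at −16.3 kb (from 49.6% to 23.5%), and the *Irf2* intron site (from 21.6% to 4.57%). None of these 4 overlapped a JunB peak. The largest move down was the *Irf1* site with the AICE match, from 64.8% to 83.9%. A place compares a peak with the rest of its own list, and is not a measure of how much IRF4 was bound.

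**Figure D4:**
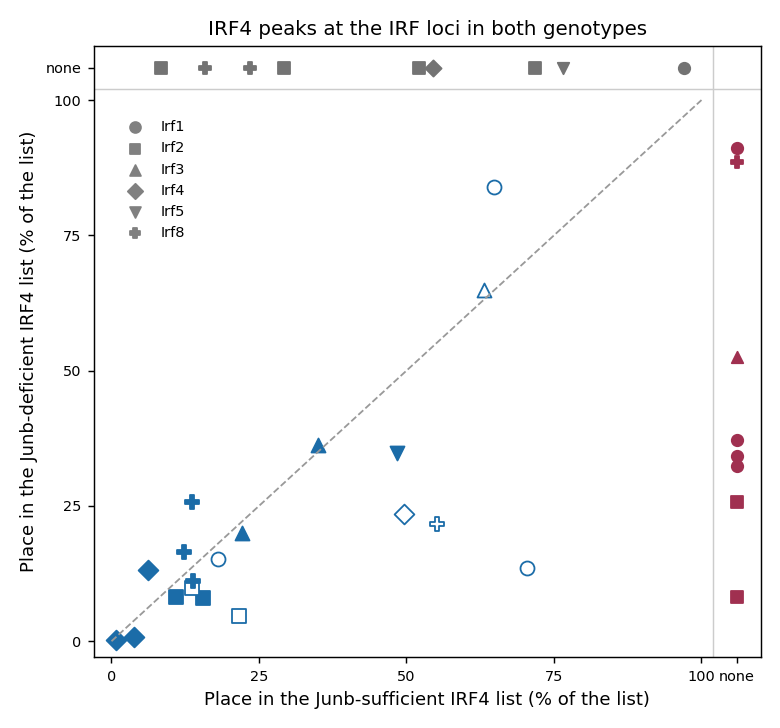
Place of each IRF4 peak in the *Junb*-sufficient list (horizontal axis) and in the *Junb*-deficient list (vertical axis), in percent of the list, where 0 is the top; marker shapes are genes, filled blue markers overlap a JunB peak, open ones do not, and the dashed line is an equal place. Grey markers in the strip at the top are the 9 peaks without a *Junb*-deficient counterpart, red markers at the right the 8 without a *Junb*-sufficient one, and 13 of the 19 kept peaks lie below the line.

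Motifs were searched as fixed letters on both strands within 100 bp of each peak centre. AP-1, TGANTCA, was found in 11 of 20 JunB peaks, or 55% (31.5 to 76.9%), against 31.0% of all JunB peaks. By locus it was in 4 of 4 at *Irf8*, 3 of 4 at *Irf2*, 4 of 9 at *Irf4*, 0 of 2 at *Irf3*, and 0 of 1 at *Irf5*. Of the 11 JunB peaks shared with BATF and IRF4, 8 held it (72.7%), against 50.1% of all such peaks, and of the 6 at *Irf4* without them 3 did (50%), against 17.8%. Both of these shares rest on few peaks, no interval was computed for them, and neither was tested. The interval for all 20 lay just above the share of the whole list, but with 200 bp on each side of the centre it held it (11 of 20 again, against 36.0%). The highest-placed site of the 6 loci, at −1.6 kb of *Irf4*, was among the peaks without a match.

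AP-1 was in 7 of 13 BATF peaks (53.8%, 25.1 to 80.8%, against 43.3%) and in 12 of 28 IRF4 peaks (42.9%, 24.5 to 62.8%, against 32.3%). In *Junb*-deficient cells it was in 5 of 27 IRF4 peaks (18.5%, 6.30 to 38.1%, against 21.9%). Each of these intervals held the share of its whole list, and the difference between the genotypes was not tested. The AICE search took GAAA directly before AP-1, or TTTC and 4 bases before it, so an AICE match always holds an AP-1 match. It found none in 20 JunB peaks (against 2.59%), none in 13 BATF peaks (against 4.81%), 1 in 28 IRF4 peaks (against 2.86%), and 1 in 27 *Junb*-deficient IRF4 peaks (against 2.32%). The last 2 are the same *Irf1* site, where the letters read GAAATGAATCA and no JunB or BATF peak was listed. EICE, with GGAA, 2 bases, and GAAA, was in 2 of 28 IRF4 peaks, those at the TSSs of *Irf2* and *Irf5* (against 3.74%). The ISRE-type sequence was in 1 of 28 (against 9.49%), the *Irf4* site at −16.3 kb. In *Junb*-deficient cells EICE was in 2 of 27 IRF4 peaks (against 3.67%), at the *Irf2* TSS and at −37.5 kb of *Irf1*, and the ISRE-type sequence in 2 of 27 (against 11.7%), at the same *Irf4* site and in the *Irf8* peak at 61.3 kb. At these numbers none of the composite shares could be told from that of its whole list.

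Other genes of the pathway were counted by the same rule. In the rest of the IRF family, *Irf7* had 2 JunB peaks and no triple site, and *Irf9* had 3 JunB peaks and 1 triple site. Of 9 partners and cofactors, 8 had a JunB peak (against 64.9% of coding genes) and 7 a triple site (against 35.1%). Of their 47 IRF4 peaks, 12 of them at *Ikzf3*, 11 had no *Junb*-deficient counterpart. That compares with 35.0% of all IRF4 peaks and 23.8% of those that overlapped JunB. These shares rest on few genes and peaks, no interval was computed for them, and none was tested. The largest numbers were at *Ikzf3*, the gene of the lymphoid factor Aiolos, with 15 JunB, 8 BATF, and 12 IRF4 peaks and 8 triple sites, and at *Ikzf1*, the gene of Ikaros, with 9 JunB, 3 BATF, and 6 IRF4 peaks. *Batf* itself had 3 JunB, 4 BATF, and 6 IRF4 peaks, and *Spi1*, which encodes PU.1, had 2, 1, and 4. *Stat2*, which encodes a transducer of interferon signals, had 2 JunB peaks and no triple site.

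By the number of peaks in the 4 lists (Euclidean distance of log2(number + 1)), the coding gene most like *Irf4* was *Prkch*, which encodes a protein kinase C, with the same 9, 4, 5, and 4 peaks. *Nr3c1*, the gene of the glucocorticoid receptor, and *Trib1*, that of a pseudokinase, followed at a distance of 0.15, each with 8, 4, 5, and 4 peaks. The genes most like *Irf2* were *Abi1* and *Efcab5* (distance 0.15) and *Dusp12* (distance 0.17). At or under this last distance there were 5 genes, and ties were taken in alphabetical order. *Irf2* was taken alphabetically before *Irf8*, which had as many JunB peaks.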

How the data were processed

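Treg cell ChIP-seq was analysed from the 4 peak lists that were deposited, 1 library per condition. Reads had been mapped by the authors with Bowtie2 to mm9, uniquely placed reads being kept, and they called peaks with HOMER (version 4.8 in the submitters' processing notes) in each library without a control in the recorded command. Peaks had to stand 4-fold above the surrounding 10 kb, at a false discovery rate of 0.001. The deposited score is 1 for every peak and carried no information, so the place in the list was used.

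TSSs came from the GENCODE annotation of mm9 (70051 positions of 22367 coding genes), and 0 peaks lay beyond a chromosome end. Peaks of different lists were shared if they had 1 bp or more in common. Member genes and gene lists were chosen with earlier results of these data known. All 6 members are described, other genes come from fixed lists, of which some members are not reported here, and neighbours are named where their TSS is nearest. Depth per peak is unknown. No test was made, since each condition had 1 library. Computations used Python 3.11.15, NumPy 2.4.6, SciPy 1.17.1, and matplotlib 3.10.9, and were tested on simulated data. The alternatives are given with the closing observations.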

Additional observations from a re-analysis of the deposited data

How the results depend on the processing

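The counts and shares of peaks were recomputed with other windows and TSSs, with BATF and IRF4 exchanged, and on the first 50% of each list, the shares and peaks listed alone also with other overlap rules, and AP-1 with a wider window. A further setting, chosen after seeing the data, counted IRF4 peaks with centres within 1 kb as counterparts. The triple share no longer stood apart from that of all JunB peaks at 25 kb (45.5%, interval 16.7 to 76.6%), for peaks nearest to a member's own TSS (56.2%, 29.9 to 80.2%), or in the first 50% (50%, 23.0 to 77.0%, against 35.5%), nor did AP-1 in JunB peaks with the wider window (31.5 to 76.9%, against 36.0%). Intervals for IRF4 peaks without a counterpart, over all of them and at JunB, held the share over all peaks in every setting run. Numbers of peaks moved with the window, from 88 to 51 at 25 kb (JunB 11, BATF 7, IRF4 17, *Junb*-deficient IRF4 16, of which 4 alone) and to 171 at 100 kb (37, 23, 56, and 55, of which 16 alone). With peaks nearest to a member's own TSS, *Junb*-deficient IRF4 peaks numbered 17, of which 4 alone. With BATF and IRF4 exchanged they would number 28 and 13, and 17 *Junb*-deficient IRF4 peaks would be alone. The first 50% of each list held 8 BATF peaks. The added setting gave 8 of 28 IRF4 peaks without a counterpart (28.6%) and 2 of 14 at JunB (14.3%), and widening JunB peaks to the BATF width gave 12 of 20 triple sites (60.0%). No paired analysis was possible because each condition had 1 library. Sites were listed or not listed by thresholds in 1 library each, so a difference between libraries and one between genotypes cannot be told apart.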
